A study of Mus musculus with 12 samples.

Results

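Collagen genes were taken from the deposited expression table as every row whose symbol was Col, a number, the letter a and a second number. The rule found 34 of the 17007 genes in the table, and 19 of the 34 had at least 0.5 FPKM (read level per exon length and library size) in at least 3 of the 12 libraries and so entered the tests. Bulk RNA had been sequenced from 4 groups of 3 mice. The first group was normal liver (NL) of wild-type C57BL/6 mice. The other 3 groups were c-MYC/MCL1/RictorKO Tsc2KO liver tumors, raised in C57BL/6J mice with floxed alleles of both genes (Rictor fl/fl, Tsc2 fl/fl) by hydrodynamic tail vein injection of plasmids for c-MYC, MCL1, Cre and the Sleeping Beauty transposase. Cre was driven by the general CMV promoter and not by a hepatocyte promoter, and the RNA came from bulk tissue, in which tumor cells and host stroma are mixed. Tumor-bearing mice were given vehicle (T), the pan-mTOR inhibitor MLN0128 (INK) or the mTORC1 inhibitor everolimus (EVE) by gavage, each drug at 1 mg/kg daily on 6 days a week for 3 weeks, starting 6 days after injection, per the labels. The study's main text instead gives a course of days for the sequenced tumors, and which of these holds was not resolved. For the 3-week course, the study's methods put collection at 3.7 weeks after injection. The wild-type livers were neither injected nor gavaged as far as the labels state, so tumor, genotype, injection and vehicle cannot be told apart in the comparison with NL.

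Collagens are trimers of 3 chains wound around each other, and each gene codes for 1 chain. Fibrillar collagens (types I, III, V, XI and their relatives) make the tensile fibers of scar and interstitium, and in liver they are known as products of activated stellate cells and portal fibroblasts. Type IV collagen forms the sheet of basement membranes, and the multiplexins (types XV and XVIII) sit in the zone around it. Type XVIII is the source of endostatin and is made by hepatocytes as well as by vessels. FACIT collagens attach to the surface of fibrils, type VI forms beaded filaments at cell surfaces, and other members are short network formers or cross the cell membrane.

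The table held 10 fibrillar chains, all 6 type IV chains, both multiplexins, 5 FACIT chains, 5 type VI chains, 1 short chain collagen, 3 transmembrane collagens and 2 others (Col7a1 and Col26a1). Of these, 8 fibrillar chains, 2 type IV chains, 2 multiplexins, 2 FACIT chains, 3 type VI chains, 1 short chain and 1 transmembrane collagen passed the filter. Col13a1 passed it only through NL, and its fall is therefore partly a condition of its being tested. Likewise Col11a2 passed it only with the MLN0128 libraries counted, since 2 of the other 9 libraries reached 0.5 FPKM. The highest value of any member below the filter was 1.01 FPKM.

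Reads recovered from the FPKM and exon lengths numbered 17187848 to 25209571 per library. The FPKM carried a scaling between libraries beyond total reads, with factors of 0.585 to 0.595 in NL and 1.10 to 1.37 in the tumors, so that the same share of reads gave a higher FPKM in NL than in a tumor. Rescaling to plain library totals moved the median over all tested genes, in log2, by 0.56 in tumor against NL, by 0.10 in MLN0128 against vehicle and against everolimus, and by 0.01 in everolimus against vehicle. Rictor was at 1.65 to 2.57 FPKM in NL and at 1.05 to 1.5 in T, and Tsc2 was at 4.5 to 5.32 and at 2.01 to 2.31. Both RNAs remained detectable in the tumors, and whole-gene FPKM do not separate a deleted from an intact transcript. MLN0128 replicates 1 and 2 held Xist RNA at 191 and 155 FPKM, whereas the other 10 libraries were at or under 0.0699, so those 2 libraries differed from the rest in a sex-linked transcript as well. Alb, the main hepatocyte product, averaged 66600 FPKM in NL and 823 to 2344 FPKM in the 3 tumor groups.

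The upstream sequences of 5 members are printed because these genes moved in different directions in the results and their windows hold at most 18 bases of an annotated exon. Each run is the 250 bases before the RefSeq start of the gene on GRCm38.p6, 5′ to 3′ on the gene's own strand. Capitals mark any of 4 motifs searched on both strands, which are TATAAA (the TATA box), CCAAT (the CCAAT box), GGGCGG (a GC box) and CACGTG (an E-box). Col3a1 was higher in tumors by the moderated test, Col27a1, Col13a1 and Col18a1 were lower in tumors in the authors' scaling, and Col11a2 was higher with MLN0128.
Col3a1, chr1:45311288-45311537, plus strand: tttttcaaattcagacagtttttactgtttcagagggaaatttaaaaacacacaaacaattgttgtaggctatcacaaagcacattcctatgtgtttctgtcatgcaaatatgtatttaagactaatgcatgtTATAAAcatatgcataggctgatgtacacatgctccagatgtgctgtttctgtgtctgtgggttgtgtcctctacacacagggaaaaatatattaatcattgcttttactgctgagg
Col27a1, chr4:63215162-63215411, plus strand: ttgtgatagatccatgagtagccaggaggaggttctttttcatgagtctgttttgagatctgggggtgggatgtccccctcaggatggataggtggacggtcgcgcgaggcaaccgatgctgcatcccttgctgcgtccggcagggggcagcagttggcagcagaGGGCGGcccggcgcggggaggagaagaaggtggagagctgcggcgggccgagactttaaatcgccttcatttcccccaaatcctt
Col13a1, chr10:61979109-61979358, minus strand: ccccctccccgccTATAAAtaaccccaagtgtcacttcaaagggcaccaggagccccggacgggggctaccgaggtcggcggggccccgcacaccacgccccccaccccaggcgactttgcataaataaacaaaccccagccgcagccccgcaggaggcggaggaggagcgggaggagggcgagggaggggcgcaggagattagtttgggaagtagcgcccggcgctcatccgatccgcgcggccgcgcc
Col18a1, far upstream start, chr10:77166531-77166780, minus strand: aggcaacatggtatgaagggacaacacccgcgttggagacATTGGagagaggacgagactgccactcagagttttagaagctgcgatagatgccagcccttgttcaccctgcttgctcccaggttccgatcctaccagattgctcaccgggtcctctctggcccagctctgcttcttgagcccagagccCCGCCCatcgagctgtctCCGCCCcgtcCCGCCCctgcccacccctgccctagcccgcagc
Col11a2, chr17:34038888-34039137, plus strand: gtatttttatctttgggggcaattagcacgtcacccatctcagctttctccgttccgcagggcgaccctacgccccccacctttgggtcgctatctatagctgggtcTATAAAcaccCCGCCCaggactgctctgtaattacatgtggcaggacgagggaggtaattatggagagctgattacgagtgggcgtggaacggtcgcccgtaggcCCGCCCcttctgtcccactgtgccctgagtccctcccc
The windows of Col3a1, Col13a1 and Col11a2 each held 1 TATAAA, a motif found in 12.4% of all 32851 RefSeq windows of this length. GGGCGG occurred 3 times before Col18a1, 2 times before Col11a2 and 1 time before Col27a1, and was present in 32.7% of all windows and in 18 of the 29 windows of members. CCAAT was present in 33.8% of all windows and in 11 of the 29. CACGTG, the canonical motif of MYC, was present in 6.02% of all windows and in 0 of the 29, which says only that these letters are not in these windows. Col4a1 and Col4a2 lie head to head on chromosome 8, with RefSeq starts 21 bases apart on opposite strands, and Col18a1 has a second start 52825 bases downstream of the one shown. The windows of these starts lie in annotated exons and are not printed. The 29 windows covered 27 of the 34 members.

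The largest feature of the collagen genes across the 12 libraries was a change in make-up between liver and tumor. In NL, Col18a1 alone made up 77.6% ± 3.07 (SD, n = 3) of the summed FPKM of all 34 members, the fibrillar chains 7.46% ± 1.12 and type IV 4.88% ± 1.58. In T, Col18a1 made up 42.1% ± 6.55, the fibrillar chains 25.9% ± 4.52 and type IV 22.4% ± 2.89. The ranges of these 3 shares did not overlap between NL and T, and no test was run on them because a sum over chosen members is a description. A share within 1 library is free of the scaling between libraries. The FACIT share was 6.62% ± 1.64 in NL and 3.00% ± 0.530 in T, and the type VI share was 1.64% ± 0.157 and 4.22% ± 0.658.

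**Figure D1:**
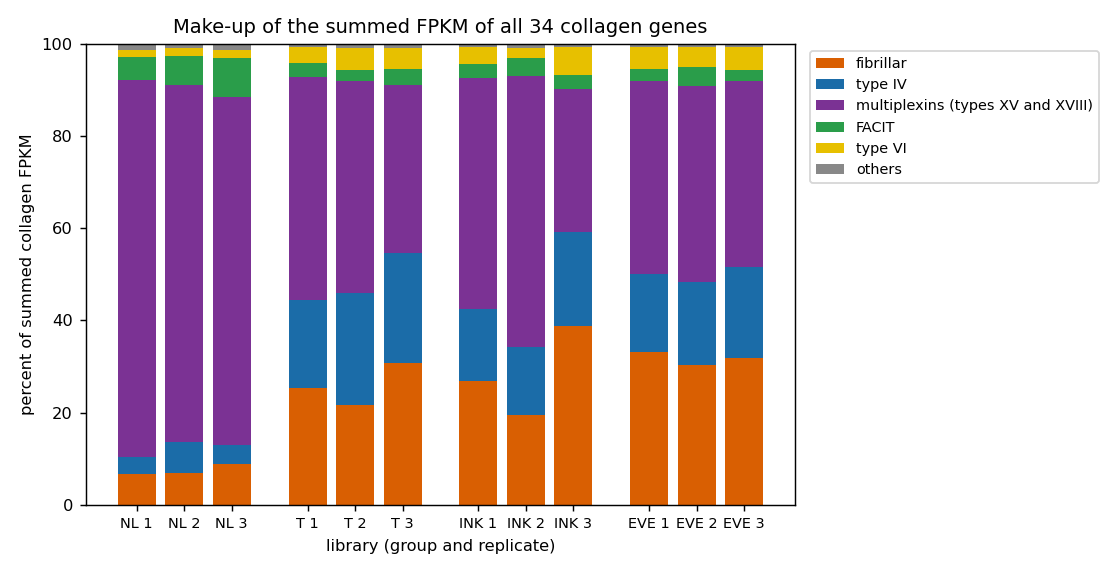
Stacked bars of the percent of summed collagen FPKM (vertical axis, 0 to 100) taken by each class in each of the 12 libraries (horizontal axis, by group and replicate). The multiplexins fill 75.6% to 81.8% of each NL bar and 31.1% to 59.0% of the tumor bars, and the fibrillar share is at most 8.75% in NL and at least 19.4% in every tumor library.

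The summed FPKM of all members was 175 to 232 in NL and 120 to 195 in T, and the drug groups stood at 169 to 183 (MLN0128) and 149 to 171 (everolimus). In the authors' scaling, the range of NL overlapped those of T and MLN0128 and lay above that of everolimus. These sums, unlike the shares, carry the factors of 0.585 to 0.595 in NL and 1.10 to 1.37 in the tumors. The order of NL and the tumor groups therefore depends on that scaling. Without Col18a1, the sum was 44.7 ± 8.44 in NL and 92.9 ± 31.1 in T. Within that remainder the fibrillar share was 33.4% ± 2.92 in NL and 44.7% ± 4.78 in T, the type IV share 21.8% ± 6.28 and 38.8% ± 4.33, and the FACIT share 29.3% ± 3.56 and 5.18% ± 0.567.

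Vehicle-treated tumors were compared with normal liver to ask which collagen genes differ between tumor and liver tissue. The chains of type I collagen (Col1a1 and Col1a2), the main type IV chains (Col4a1 and Col4a2) and Col5a2 rose, and Col18a1, Col14a1, Col27a1 and Col13a1 fell in the authors' scaling. Col1a1 averaged 16.6-fold and Col4a1 3.91-fold its level in NL, whereas Col18a1 averaged 0.423 of it. Unless voom is named, fitted log2 fold changes here and below are differences of log2(FPKM + 1), which compresses low values. Col8a1 averaged 3.06-fold its NL level, with 0.40 on that scale and 1.55 by limma voom on the recovered reads. Col13a1 averaged 0.162 of its NL level, with -1.14 and -2.61. By limma treat, which asks whether a change exceeds 1.5-fold, 5 of the 19 tested members were higher and 4 lower. Calls needed a p under 0.05 after Benjamini-Hochberg adjustment over the 14397 tested genes. Of all tested genes, 15.9% were called higher and 16.9% lower. By limma's moderated test, which asks for any change, 13 of the 19 tested members were higher and 4 lower. By that test 36.0% of all tested genes were higher and 33.0% lower. With FPKM rescaled to plain library totals, treat called 6 members higher and 0 lower, so no fall was called by treat, whereas the same 5 rises were called again together with Col3a1. By the moderated test, the falls of Col27a1 and Col13a1 were also called under plain totals and those of Col18a1 and Col14a1 were not. Plain totals moved the median over all tested genes up by 0.56, and the share of all genes called under them was not counted. Counts under plain totals, here and for the lists below, therefore cannot be set apart from that general shift. The p-values measure the spread between these mice. In bulk RNA, fewer cells of a type and less RNA per cell cannot be told apart.

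**Figure D2:**
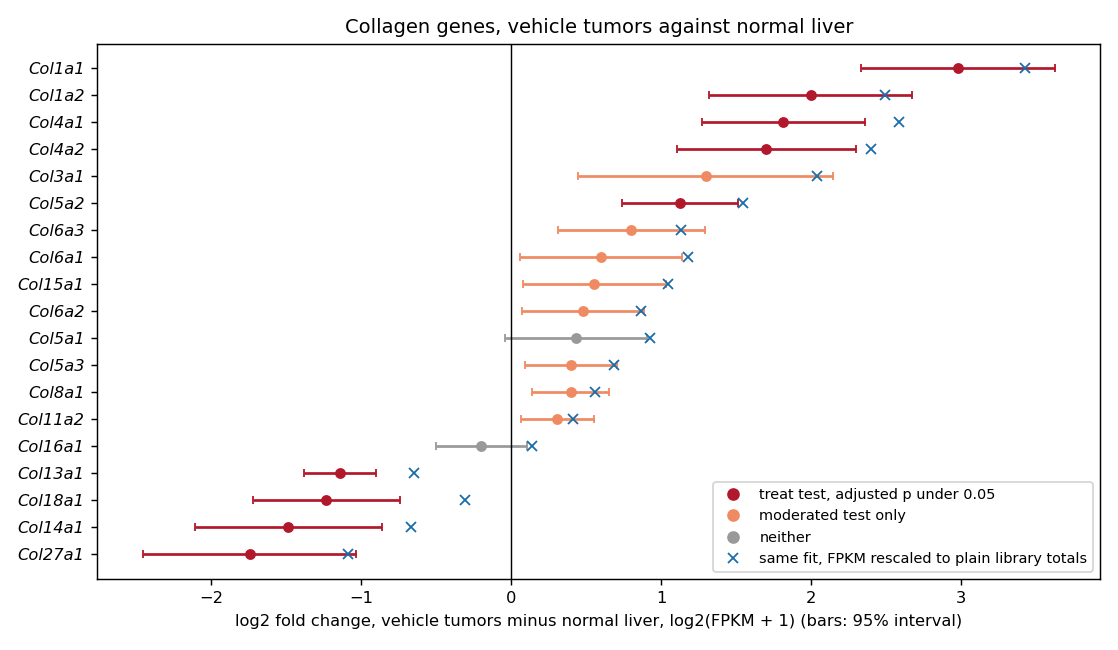
Fitted log2 fold change of the 19 tested collagen genes, vehicle tumors minus normal liver (horizontal axis, log2(FPKM + 1) scale, bars show the 95% interval, n = 3 per group), with crosses for the same fit on FPKM rescaled to plain library totals. The crosses lie to the right of every point, and they leave Col18a1 at -0.31 and move Col16a1 from -0.20 to 0.14.

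Among the fibrillar members, Col1a1 (chromosome 11, 94936224 to 94953042) codes for the main chain of type I collagen. Its FPKM were 0.480, 1.35 and 0.686 in NL and 12.8, 8.82 and 20.2 in T. Every T library was above every NL library, and the log2 fold change was 2.98 (SE 0.30, limma treat adjusted p = 2.52e-05). Col1a2 (chromosome 6, 4504814 to 4541544), the second chain of the same trimer, was at 0.925, 1.58 and 0.756 FPKM in NL and at 6.94, 4.56 and 11.6 in T, with a log2 fold change of 2.0 (SE 0.31, treat adjusted p = 0.00175). Col5a2 (chromosome 1, 45374321 to 45503282), a chain of the type V collagen that is built into type I fibrils, was at 0.657, 0.879 and 0.869 FPKM in NL and at 2.72, 2.61 and 3.49 in T, with a log2 fold change of 1.12 (SE 0.18, treat adjusted p = 0.018). The groups did not overlap for either gene. The Col5a2 call was lost without NL replicate 1 (treat adjusted p = 0.0626), without vehicle replicate 3 (0.0716) and with quantile normalization (0.0646).

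Col3a1 (chromosome 1, 45311538 to 45349706), which forms the reticular fibers of normal liver, was the most abundant of the type I, III and V chains in NL. It was at 3.42, 7.80 and 3.23 FPKM in NL and at 13.7, 7.36 and 18.9 in T, so NL replicate 2 lay above vehicle replicate 2. Its log2 fold change of 1.30 (SE 0.39) passed the moderated test (adjusted p = 0.0106) and not treat (adjusted p = 0.124). Without NL replicate 2 or without vehicle replicate 2, treat called it (adjusted p = 0.036 and 0.0361). Col5a3, Col11a2 and Col5a1, minor fibrillar chains, averaged 0.938, 0.358 and 2.13 FPKM in T and 0.464, 0.0964 and 1.30 in NL. The libraries of Col5a3 were at 0.586, 0.413 and 0.394 FPKM in NL and at 1.01, 0.704 and 1.10 in T. The first 2 genes passed the moderated test (adjusted p = 0.0236 and 0.0278), and Col5a1 did not (0.0948).

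Col27a1 (chromosome 4, 63214004 to 63334991), a fibrillar chain known from cartilage, went the other way. It was at 5.65, 2.19 and 7.90 FPKM in NL and at 1.17, 0.197 and 0.926 in T. The groups did not overlap, with a log2 fold change of -1.75 (SE 0.33, treat adjusted p = 0.00804). Under plain library totals the fold change was -1.09 and passed only the moderated test (adjusted p = 0.0061, treat 0.124).

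Of the type IV chains, Col4a1 (chromosome 8, 11198423 to 11312826) and Col4a2 (chromosome 8, 11312805 to 11449287) code for the trimer of most basement membranes. Col4a1 was at 4.25, 8.24 and 4.20 FPKM in NL and at 18.7, 17.6 and 29.0 in T, a log2 fold change of 1.82 (SE 0.25, treat adjusted p = 0.00103). Col4a2 was at 2.49, 6.14 and 2.23 FPKM in NL and at 11.5, 11.3 and 17 in T, a log2 fold change of 1.7 (SE 0.27, treat adjusted p = 0.00357). For both genes all T libraries were above all NL libraries, and the calls held with each library left out. The other 4 type IV chains were under 1 FPKM in every library. Col4a5 reached 0.864 FPKM, and Col4a3, a chain known from kidney and lung basement membrane, was at 0.121, 0.0819 and 0.115 FPKM in NL (9 to 13 reads) and at 0.00468, 0 and 0.0345 in T (0 to 8 reads).

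The multiplexins moved in opposite directions in the authors' scaling. Col18a1 (chromosome 10, 77052178 to 77166548) was at 157, 178 and 131 FPKM in NL and at 75.5, 53.8 and 67.6 in T, a log2 fold change of -1.23 (SE 0.23, treat adjusted p = 0.0243). The recovered reads were 9598 to 13780 in NL and 7963 to 11357 in T. Under plain library totals the log2 fold change was -0.31 and passed neither test (moderated adjusted p = 0.183), and treat did not call Col18a1 with quantile normalization (-0.32), without NL replicate 1 (adjusted p = 0.0589), without NL replicate 2 (0.0825) or without vehicle replicate 2 (0.0956). Col15a1, known from capillary basement membranes, was at 1.49, 1.27 and 0.996 FPKM in NL and at 2.15, 1.59 and 3.38 in T, and its log2 fold change of 0.55 (SE 0.22) passed only the moderated test (adjusted p = 0.0398).

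Col14a1 (chromosome 15, 55307750 to 55520803), a FACIT collagen of fibril surfaces, was at 8.74, 13.2 and 13.2 FPKM in NL and at 3.57, 2.04 and 5.42 in T. The groups did not overlap, with a log2 fold change of -1.49 (SE 0.29, treat adjusted p = 0.0153). The call was lost under plain library totals (log2 fold change -0.67, treat adjusted p = 0.641), without NL replicate 2 (0.0513), without NL replicate 3 (0.0544) and without vehicle replicate 2 (0.0702). Col16a1, the other tested FACIT chain, was at 0.563 to 1.01 FPKM in NL and 0.330 to 0.674 in T, and its direction turned with the scaling. Col13a1 (chromosome 10, 61838236 to 61979108), a membrane-spanning collagen, was at 2.13, 1.54 and 2.0 FPKM in NL and at 0.243, 0.340 and 0.336 in T, a log2 fold change of -1.14 (SE 0.11, treat adjusted p = 0.000841). Under plain library totals it was -0.65 and passed only the moderated test (adjusted p = 0.0002, treat 0.487).

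The 3 tested type VI chains rose by the moderated test and not by treat. Col6a1 was at 1.67, 2.13 and 1.79 FPKM in NL and at 2.49, 3.34 and 4.35 in T, the highest level of the class. Col6a2 was at 0.624, 0.980 and 0.679 FPKM in NL and at 1.27, 1.20 and 1.92 in T. Col6a3 was at 0.403, 0.773 and 0.465 FPKM in NL and at 1.73, 1.06 and 2.43 in T (log2 fold change 0.80, SE 0.22, moderated adjusted p = 0.00735). Col6a1 and Col6a2 had log2 fold changes of 0.60 and 0.48 (moderated adjusted p = 0.0476 and 0.0367). Col8a1, a short chain collagen of vessel walls, was at 0.225, 0.174 and 0.159 FPKM in NL and at 0.518, 0.406 and 0.784 in T (log2 fold change 0.40, SE 0.12, moderated adjusted p = 0.00994). Of the 17 moderated calls among members, 12 held with each library left out. The 5 that were lost at least once were Col6a1, which was lost without 9 of the 12 libraries in turn, Col15a1 with 5, Col5a3 and Col11a2 with 4 each and Col6a2 with 3, and the highest adjusted p among them was 0.175. With quantile normalization the calls of Col6a1 (adjusted p = 0.121), Col6a2 (0.101), Col8a1 (0.128), Col5a3 (0.115), Col11a2 (0.363) and Col15a1 (0.0921) were also lost, and by voom those of Col6a1 (0.0894) and Col15a1 (0.0685). Without the filter Col6a1 was not called (0.056).

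**Figure D3:**
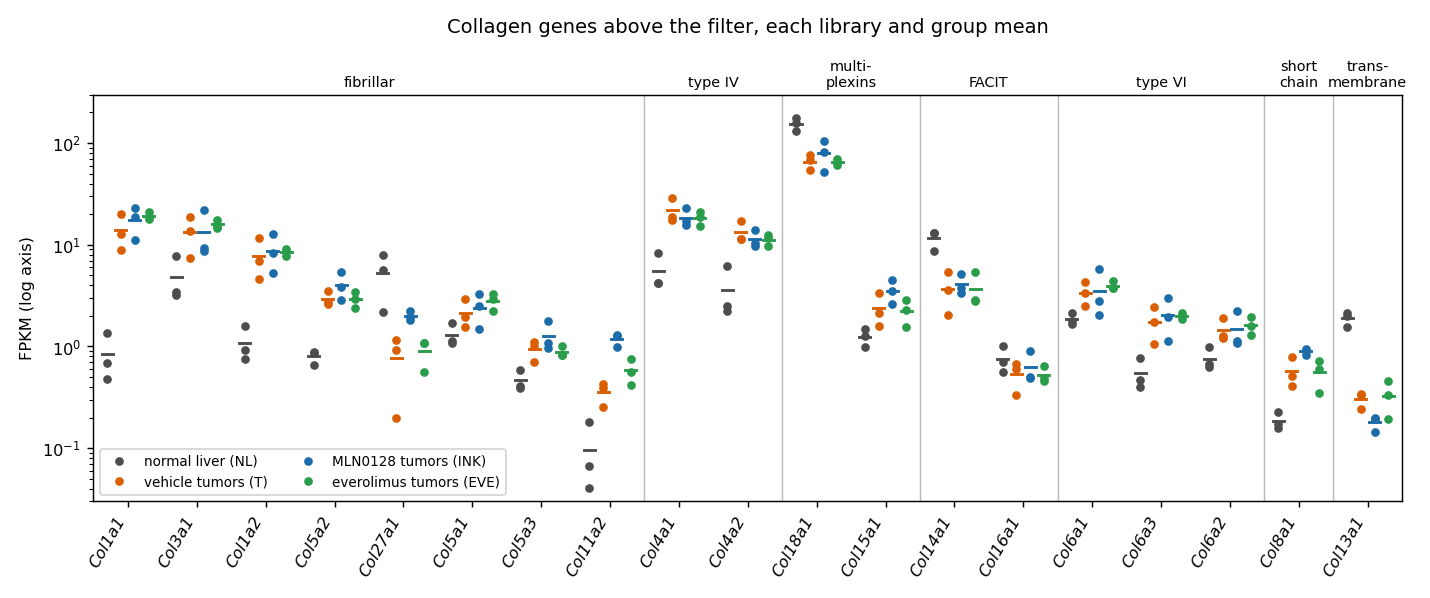
FPKM (vertical log axis) of the 19 collagen genes above the filter in each of the 12 libraries, grouped by class, with dots for libraries and short lines for the mean of 3. Col18a1 stands highest in all 4 groups, and the 3 NL dots of Col1a1, all at or under 1.35 FPKM, lie below every tumor dot, all at or above 8.82.

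Several members below the filter also separated the groups, at levels where few reads stand behind a value. Col26a1, a small secreted collagen, was listed at 0 in all 3 NL libraries and at 0.325, 0.174 and 0.383 FPKM in T (57, 30 and 73 reads). Against a floor of 3 reads in each NL library, it was at least 8.61-fold higher in T. Col25a1, a transmembrane collagen known from neurons, was at 0.0716, 0.0630 and 0.178 FPKM in NL (10, 9 and 24 reads) and at 0 in all 3 T libraries, at least 9.84-fold lower in T against the same floor. The floor covers counting error only. Without the filter, the moderated test called Col26a1 (adjusted p = 0.000428) and Col7a1, the anchoring fibril collagen, higher (0.00783, at 0.00882 to 0.0279 FPKM in NL and 0.113 to 0.192 in T), and it called Col25a1 (0.0171), Col4a3 (0.0134) and Col24a1 (0.0106) lower. Treat called 0 of the 15 members below the filter. On log2(FPKM + 1) none of their differences between T and NL reached 1.5-fold, the largest being 0.37 for Col26a1. Treat on that scale therefore could not call them and does not speak to their fold change. Col12a1, a FACIT chain, stayed at 0.222 to 0.564 FPKM, and Col4a4, Col4a6, Col6a5, Col6a6, Col9a3, Col11a1 and Col17a1 stayed at or under 0.216 FPKM, and without the filter the moderated test called 0 of these 8 in any of the 4 comparisons.

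Ratios between chains of 1 library do not depend on the scaling between libraries. The FPKM ratio of Col1a1 to Col1a2 was 0.519 to 0.907 in NL and 1.74 to 1.93 in T. The ratio of Col3a1 to Col1a1 went from 4.71 to 7.13 in NL to 0.834 to 1.07 in T, and that of Col4a1 to Col1a1 from 6.10 to 8.85 to 1.44 to 2.0. Col1a1, the least abundant of these chains per length in NL, thus stood near Col3a1 in T. The ratio of Col5a2 to Col5a1 went from 0.514 to 0.776 to 1.20 to 1.68. None of these 4 ranges overlapped between the groups. The ratio of Col4a1 to Col4a2 was 1.34 to 1.88 in NL and 1.56 to 1.71 in T, with a mean log2 difference of 0.001, and that of Col6a1 to Col6a2 was 2.17 to 2.68 and 1.96 to 2.78. The smallest p that a two-sided exact permutation test of 3 against 3 can give is 0.1, which these 4 ratios reached (adjusted p = 0.35 over 28 comparisons of ratios), so the test cannot pass 0.05.

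**Figure D4:**
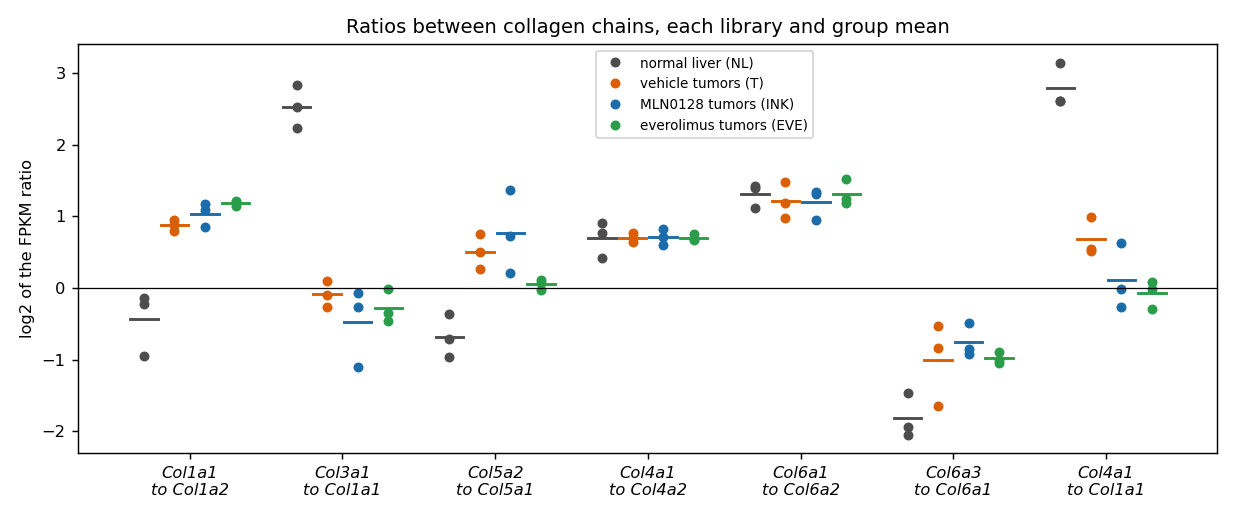
Log2 of the FPKM ratio (vertical axis) for 7 pairs of collagen chains in each library (dots) with the mean of each group of 3 (lines). The NL dots stand apart from all tumor dots for Col1a1 to Col1a2, Col3a1 to Col1a1, Col5a2 to Col5a1 and Col4a1 to Col1a1, and mix with them for Col4a1 to Col4a2 and Col6a1 to Col6a2.

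The genes that build, cut and bind collagen did not move as 1 block. Of 26 tested genes for collagen synthesis, folding and crosslinking, treat called 4 higher and 4 lower in T than in NL, with a median log2 fold change of -0.03 beside 0.06 over all tested genes. Plod2, a lysyl hydroxylase that sets the crosslinks of scar collagen, rose from 0.224 to 0.286 FPKM in NL to 5.46 to 7.06 in T (log2 fold change 2.49). Crtap, part of the prolyl 3-hydroxylation complex, rose from 2.76 to 5.94 FPKM to 18.3 to 20.2, and P4ha2 and Loxl2 were the other 2 higher genes. Bmp1, the protease that trims the C-propeptide of fibrillar collagens, fell from 17 to 18.6 FPKM to 1.97 to 3.19 (log2 fold change -2.44), and Plod1, Ppib and Mia3 were the other 3 lower genes. Under plain library totals 8 of these genes were higher and 1 lower.

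Of 8 tested collagen breakdown genes, treat called 0 higher and 1 lower, Mmp15 (9.87 to 13.5 FPKM in NL, 1.80 to 3.04 in T), and the moderated test called 2 higher and 1 lower. Under plain totals treat called 2 higher and 0 lower. Among 7 tested collagen receptors, Ddr1 rose from 0.261 to 0.741 FPKM to 14.3 to 20.2 and Adgrg1 also rose, whereas Itgb1 fell from 113 to 119 FPKM to 55.1 to 64.2 and was near level under plain library totals (log2 fold change -0.04). Of 12 tested small proteoglycans and fibril partners, the moderated test called 1 higher and 7 lower, and treat called 0 higher and 5 lower. Dcn, the proteoglycan decorin that coats type I fibrils, went from 43.0 to 62.3 FPKM in NL to 3.44 to 5.11 in T (log2 fold change -3.35, and -2.47 under plain totals). Lum, Prelp, Ogn and Fn1 were the others that treat called, and under plain totals treat called 1 gene of this list lower.

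Among 12 tested basement membrane partners, treat called 3 higher and 1 lower. Lamc1, a laminin chain, went from 2.31 to 3.05 FPKM in NL to 12.4 to 16.5 in T, Lama5 and Nid2 also rose, and Lama3 fell. Under plain totals 6 were higher and 1 lower. Of 16 tested fibrogenic signalling genes, treat called 2 higher and 0 lower, the moderated test 6 higher and 2 lower, and treat under plain totals 5 higher. Pdgfb, a ligand that drives stellate cell growth, rose from 0.245 to 0.392 FPKM in NL to 3.33 to 4.47 in T (log2 fold change 1.88, treat adjusted p = 5.43e-05).

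Markers of collagen-making cells moved in different directions in the same libraries. Of 10 hepatic stellate cell markers, treat called 0 higher and 6 lower, and 1 higher and 6 lower under plain totals. The moderated test called 1 higher and 9 lower. The list summed to 107 to 137 FPKM in NL and 16.5 to 23.8 in T. Lrat, a retinoid enzyme of quiescent stellate cells, was at 6.47 to 13.4 FPKM in NL and at 0.151 to 0.273 in T. Of the 4 tested myofibroblast markers, Acta2 rose from 0.917 to 1.15 FPKM to 4.42 to 14.3, and the list's sum was 4.01 to 5.76 in NL and 8.37 to 24.8 in T. The 6 portal fibroblast markers summed to 1.19 to 3.02 FPKM in NL and 2.78 to 9.91 in T, with 0 called by treat and 3 higher by the moderated test. The endothelial list (11 genes) had 0 higher and 8 lower (4 lower under plain totals) and summed to 102 to 122 FPKM in NL and 22.1 to 31.8 in T. Of 6 macrophage markers 1 was higher and 2 lower, of 5 tested cholangiocyte markers 4 were higher, of 8 hepatocyte markers 6 were lower, and of 2 tested mesothelial markers 0 were called. No marker of these lists was at 0 in all 3 libraries of a group. Their part in the collagen results was not tested.

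In T, MLN0128 and NL, most tested collagen genes had their highest value in the same mouse of the group. Vehicle replicate 3 held the highest value of 16 of the 19 tested members among the 3 T libraries, where it held the highest value of 31.4% of all tested genes, and vehicle replicate 2 held the lowest of 17, against 36.7%. MLN0128 replicate 3 was the highest of its group for 13 of the 19, against 31.4% of all tested genes. NL replicate 2 was the highest for 13, against 36.9%. In the everolimus group, replicate 3 was the highest for 11, against 32.2%, and replicate 2 for 7, against 31.6%. The summed markers of stellate cells, myofibroblasts, portal fibroblasts, endothelial cells, cholangiocytes, macrophages and mesothelial cells were also highest in vehicle replicate 3 within T, and all of these but the endothelial and macrophage sums were highest in MLN0128 replicate 3 within its group. The part of those cells was not tested.

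MLN0128-treated tumors were compared with vehicle tumors to ask whether inhibiting mTOR changed collagen expression. The main chains kept levels that overlapped between the groups. By treat, 0 members were higher and 0 lower, where 0.479% of all tested genes were called higher and 1.65% lower. The moderated test called 1 member higher and 0 lower, where 14.9% of all tested genes were higher and 17.1% lower, and 3 members had an unadjusted p under 0.05 (Col11a2, Col27a1 and Col8a1). Col1a1 was at 18.8, 11.1 and 23.0 FPKM with MLN0128, and its log2 fold change of 0.33 had a 95% interval of -0.31 to 0.98. Col4a1 was at 15.7, 17.1 and 22.8 FPKM (log2 fold change -0.20, 95% interval -0.75 to 0.34), and Col18a1 at 81.5, 105 and 52.5 FPKM (0.23, -0.26 to 0.73). These intervals include a 1.5-fold change in at least 1 direction. Without MLN0128 replicates 1 and 2, the pair with Xist RNA, Col18a1 was at -0.30 and Col4a1 at 0.10.

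Most other chains that had differed between liver and tumor also overlapped between MLN0128 and T. Col3a1 was at 8.75, 9.23 and 21.9 FPKM with MLN0128, Col1a2 at 8.35, 5.23 and 12.7, and Col4a2 at 10.4, 9.67 and 13.9. Col14a1 was at 3.34, 5.20 and 3.78 FPKM and Col5a2 at 2.89, 3.87 and 5.39. Each of these 5 genes had at least 1 MLN0128 library inside the range of T. Col6a1 was at 2.77, 2.06 and 5.72 FPKM, Col6a2 at 1.12, 1.07 and 2.25 and Col6a3 at 1.97, 1.14 and 3.01, and these also overlapped T. So did Col15a1 at 3.52, 2.62 and 4.48 FPKM and Col5a3 at 1.09, 0.958 and 1.79. Col13a1 did not, at 0.199, 0.194 and 0.145 FPKM, below all 3 T libraries, and its difference did not pass the moderated test (adjusted p = 0.329).

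Col11a2 (chromosome 17, 34039437 to 34066685), a minor fibrillar chain known from cartilage, was the member that rose with MLN0128. It was at 1.27, 1.31 and 0.979 FPKM with MLN0128 (161 to 248 reads), at 0.389, 0.257 and 0.427 in T (37 to 68 reads), at 0.759, 0.421 and 0.564 with everolimus (88 to 99 reads) and at 0.0407, 0.0664 and 0.182 in NL (3 to 13 reads). All MLN0128 libraries were above all others. The mean was 3.32-fold that in T, and on the log2(FPKM + 1) scale, which compresses low values, the difference was 0.69 (SE 0.11, moderated adjusted p = 0.00119, range over the alternatives 0.000284 to 0.0526). Treat on that scale did not call it (adjusted p = 1), and limma voom on the recovered reads did (log2 fold change 1.74, treat adjusted p = 0.0321). The highest adjusted p came without both libraries with Xist RNA, where the difference was 0.55 and 1 MLN0128 library was left, assumed to vary like the other groups. The gene was in the tests because of its MLN0128 libraries, so its p is not that of a gene chosen without regard to them.

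Col27a1 and Col8a1 were also above all T libraries with MLN0128. Col27a1 was at 1.96, 2.22 and 1.82 FPKM, with a log2 fold change of 0.81 (95% interval 0.10 to 1.52) that failed the correction (moderated adjusted p = 0.0786) and passed it by voom (1.71, adjusted p = 0.0437) and under plain library totals (0.96, 0.0286). Col8a1 was at 0.832, 0.946 and 0.913 FPKM, with a log2 fold change of 0.28 (95% interval 0.02 to 0.54, moderated adjusted p = 0.09). Among members below the filter, Col20a1, a FACIT chain, was at 1.01, 0.867 and 0.415 FPKM with MLN0128 (148, 95 and 51 reads) and at 0.145, 0.203 and 0.301 in T (16, 22 and 36 reads), and without the filter it passed the moderated test (adjusted p = 0.00991). The 2 libraries with the higher values were those with Xist RNA.

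Everolimus-treated tumors were compared with vehicle tumors by the same tests. Treat called 0 members higher and 0 lower, where 0.0347% of all tested genes were called higher and 0.57% lower. The moderated test also called 0 in either direction, where 3.78% were higher and 6.05% lower, 0 members had an unadjusted p under 0.05, and voom called 0. Col1a1 was at 18.8, 17.8 and 21.1 FPKM with everolimus, within a narrower range than in T, and its log2 fold change of 0.51 had a 95% interval of -0.14 to 1.15. Col4a1 was at 15.4, 18.8 and 20.8 FPKM (log2 fold change -0.21, 95% interval -0.76 to 0.33), and Col18a1 at 60.6, 70.5 and 65.8 FPKM (0.01, -0.48 to 0.50). The fibrillar share of the collagen sum was 31.7% ± 1.45 with everolimus and 28.4% ± 9.76 with MLN0128, beside 25.9% in T, and all 3 ranges overlapped. Col3a1 was at 14.7, 17.6 and 15.3 FPKM with everolimus, Col1a2 at 8.52, 7.73 and 9.13, and Col4a2 at 9.70, 11.7 and 12.4. Col14a1 was at 2.88, 5.43 and 2.81 FPKM, Col5a2 at 2.39, 3.46 and 2.90, and Col13a1 at 0.333, 0.459 and 0.192. All 6 overlapped the range of T, as did Col27a1 at 1.08, 0.555 and 1.09 FPKM. The type VI chains, Col15a1, Col8a1 and Col5a3 overlapped T as well. Col6a1 was at 3.77, 3.72 and 4.4 FPKM, Col6a2 at 1.31, 1.58 and 1.94 and Col6a3 at 2.02, 1.86 and 2.12. Col15a1 was at 1.55, 2.29 and 2.86 FPKM, Col8a1 at 0.345, 0.603 and 0.722 and Col5a3 at 0.824, 0.829 and 1.01.

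Col26a1 was lower with both drugs than with vehicle. It was at 0.00861, 0.0230 and 0.0716 FPKM with MLN0128 (2, 4 and 14 reads) and at 0.117, 0.0364 and 0 with everolimus (18, 9 and 0 reads), all below the lowest T library at 0.174. Without the filter the moderated test called it lower with MLN0128 (adjusted p = 0.00443) and with everolimus (0.0185), and treat did not (adjusted p = 1 in both). The comparisons share the T libraries with each other and with the comparison against NL. The cholangiocyte marker Krt19 was at 29.6, 9.49 and 44.0 FPKM in T and 0.152 to 0.834 with MLN0128. It was at 0.257 to 0.944 with everolimus and 0.207 to 0.650 in NL. Of 5 tested cholangiocyte markers, treat called 3 lower with MLN0128 and 1 lower with everolimus. The list summed to 45.4 to 99.0 FPKM in T and 40.6 to 44.0 in NL. With MLN0128 the list summed to 10.7 to 29.6 FPKM, and with everolimus to 17.7 to 64.3. Its part in the Col26a1 difference was not tested.

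MLN0128 and everolimus were also compared directly. Treat called 0 members higher and 0 lower with MLN0128, where 0.00695% of all tested genes were higher and 0.0347% lower. The moderated test called 1 higher, Col11a2 (log2 difference 0.47, SE 0.11, adjusted p = 0.0269), and 0 lower, where 3.99% of all tested genes were higher and 5.54% lower. That call was lost without MLN0128 replicate 1 (adjusted p = 0.0982), MLN0128 replicate 2 (0.0653), everolimus replicate 2 (0.0596) or everolimus replicate 3 (0.0999), and without both libraries with Xist RNA (0.298, with 1 MLN0128 library left). Col8a1 (0.29, 95% interval 0.04 to 0.55) and Col15a1 (0.49, 0.01 to 0.97) had an unadjusted p under 0.05 and failed the correction (adjusted p = 0.137 and 0.176). For Col1a1 the log2 difference was -0.17 (95% interval -0.82 to 0.48), for Col4a1 0.01 (-0.54 to 0.55) and for Col18a1 0.22 (-0.27 to 0.72).

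**Figure D5:**
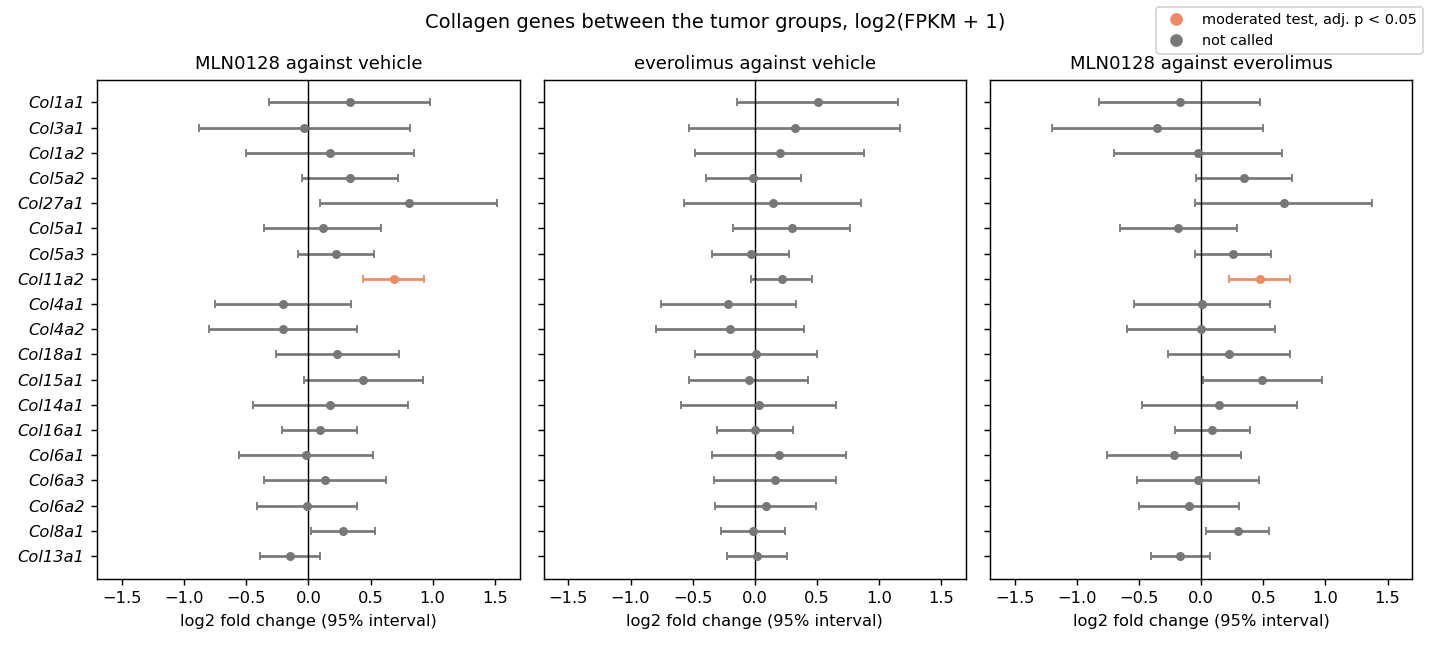
Fitted log2 fold change (horizontal axis, log2(FPKM + 1) scale) with its 95% interval for the 19 tested collagen genes in 3 comparisons between tumor groups, n = 3 per group. All intervals but those of Col11a2, Col27a1 and Col8a1 in the left panel, and of Col11a2, Col15a1 and Col8a1 in the right panel, include 0.

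Some chain ratios also separated the tumor groups. Col4a1 to Col1a1 was 1.44 to 2.0 in T and 0.819 to 1.06 with everolimus, and Col1a1 to Col1a2 was 1.74 to 1.93 in T and 2.21 to 2.31 with everolimus. Col5a2 to Col5a1 was 0.983 to 1.08 with everolimus, below the 1.20 to 1.68 of T and the 1.16 to 2.58 of MLN0128. Each gave the smallest exact permutation p of 0.1 (adjusted p = 0.35), so none passed a threshold.

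Outside the collagens, the gene for the collagen chaperone HSP47, Serpinh1, differed between the tumor groups. It was at 47.0, 24.3 and 33.2 FPKM with MLN0128, 10.5, 6.12 and 13.8 in T, 14.2, 14.5 and 17.1 with everolimus and 5.65 to 8.46 in NL. All MLN0128 libraries were above all others, with a log2 fold change of 1.7 against T (SE 0.28, treat adjusted p = 0.0443). It was the 1 gene of the 26 for synthesis, folding and crosslinking that treat called with MLN0128, and that call was lost without MLN0128 replicate 3. In the other 5 collagen pathway lists treat called 0 genes in all 3 comparisons between tumor groups. By the moderated test, 2 synthesis genes were higher and 5 lower with MLN0128 than with vehicle, and 0 differed with everolimus. The stellate, myofibroblast, portal fibroblast and endothelial lists had 0 genes called by treat in these comparisons. With MLN0128 against vehicle, treat called 1 of 8 hepatocyte markers lower and the moderated test 4, and the macrophage markers summed to 58.3 to 92.2 FPKM in T and 23.5 to 34.2 with MLN0128 (0 called by treat, 2 lower by the moderated test).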

How the data were processed

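RNA-seq libraries from 12 mice were used, in 4 groups of 3 given by the labels. The values are FPKM deposited by the authors as 1 linear table with 3 significant digits. Per the labels, total RNA was extracted with the Quick-RNA Miniprep kit and made into libraries by polyA capture or rRNA removal, and the submitters' processing notes name GRCm38 and FastQC 0.11.7. The aligner and counter are not given in the sources used here. FPKM were taken as log2(FPKM + 1), and the 14397 genes that reached 0.5 FPKM in 3 or more libraries were tested with limma 3.58.1 in R 4.3.3, all 12 libraries in 1 model with a trended prior. Calls used treat, after the glmTreat function that the authors used in edgeR, with a minimum fold change of 1.5, a cutoff that the study's text uses although its methods do not name it for glmTreat, and a Benjamini-Hochberg adjusted p under 0.05. Because FPKM are not counts, edgeR was not run. FPKM times the exon lengths of GENCODE M21 gave whole reads, within 0.1 read, for 98.2% to 98.8% of values under 20 reads (20% by chance), and limma voom on those reads was an alternative. Of the 34 members, 10 share exon bases with another gene, at most 6.07% of their length, and strand use in counting is not stated. Chain ratios were compared by two-sided exact permutation tests, class sums were only described, and promoter sequences came from RefSeq. The fits were tested on simulated data. The text gives values in every library for members that reached 5 FPKM in 3 or more libraries, members called in any comparison and the highest member of each class, and the other members by range. The rule for other lists was the genes called between tumor groups and the 3 with the largest changes from NL, of which those of the pathway lists are named and the marker lists are given mainly by counts and sums. The members, lists and tests were chosen with earlier results of these data known. Leaving out both libraries with Xist RNA, and lists without vehicle or MLN0128 replicate 3, was chosen after seeing the data. One result of the fibrogenic signalling list is not reported here.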

Additional observations from a re-analysis of the deposited data

Results flagged for a closer look

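The response of Col11a2 to the drugs differed between the drug groups: its log2 fold change against vehicle was higher by 0.47 with MLN0128 than with everolimus (limma moderated test of the difference, adjusted p = 0.0269). The difference was 0.33 without both MLN0128 libraries that held Xist RNA (adjusted p = 0.298), and the part of the sex-linked transcript was not tested. That fit kept 1 MLN0128 library, assumed to vary like the other groups. Col11a2 passed the filter on low values only with its MLN0128 libraries counted. Groups of 3 were not searched for single libraries that stand apart.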

How the results depend on the processing

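In T against NL, the 5 members called higher by treat became 13 by the moderated test and 8 when that test was joined to a 1.5-fold minimum, and numbered 4 to 6 with each library left out. The 4 called lower became 0 under plain library totals and numbered 2 to 4 with each library left out, with 2 left without NL replicate 2 or vehicle replicate 2. In MLN0128 against vehicle, 1 member was higher by treat on voom values (2 by the moderated test on them), by the moderated test and by that test joined to the 1.5-fold minimum, and in MLN0128 against everolimus 1 by the moderated test. Signs turned as follows. Col16a1 in T against NL was 0.14 under plain totals. With each library left out, the log2 fold change of Col4a1 spanned -0.35 to 0.012 in MLN0128 against vehicle, -0.34 to 0.0044 in everolimus against vehicle and -0.14 to 0.11 in MLN0128 against everolimus, that of Col18a1 spanned -0.12 to 0.12 in everolimus against vehicle and -0.0016 to 0.49 in MLN0128 against everolimus, and that of Col1a1 spanned -0.38 to 0.11 in MLN0128 against everolimus. Without both libraries with Xist RNA, which leaves 1 MLN0128 library, Col18a1 was -0.30 against vehicle and -0.31 against everolimus, Col4a1 0.10 against vehicle and Col1a1 0.25 against everolimus. The log2 ratio of Col4a1 to Col4a2, T minus NL, spanned -0.14 to 0.11 and that of Col6a1 to Col6a2 -0.24 to 0.015. The causes were not tested. The numbers did not pair the libraries (correlation of deviations over 0.1 in 1 of 18 same-numbered pairs, range -0.289 to 0.148, and 1 library correlated best with its own number). With the replicate block, 5 members were higher and 4 lower in T against NL and 0 in the other 3 comparisons, and Col11a2 lost its moderated call in MLN0128 against everolimus (adjusted p = 0.0507). With 3 reads as the floor, members under 1 FPKM rest on few reads and 3 mice per group limit all intervals.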
